A study of Mus musculus with 10 samples.

Results

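Hox genes encode homeodomain transcription factors that give cells a position along the body axis, and 36 of them were measured among the 18820 genes of 10 mouse teratoma arrays. A member was any probe set annotated to a single symbol of the form Hoxa, Hoxb, Hoxc or Hoxd with a number from 1 to 13, and each gene had 1 such probe set. The 36 genes comprised 10 of the Hoxa cluster on chromosome 6, 9 of Hoxb on chromosome 11, 9 of Hoxc on chromosome 15 and 8 of Hoxd on chromosome 2. By paralogue number, which runs along each cluster, 11 were anterior (1 to 4), 10 central (5 to 8) and 15 posterior (9 to 13).

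The teratomas grew under the skin of female nu/nu mice, which lack a thymus, from J1 embryonic stem cells of strain Sv/129 that carried no functional mouse Vhl. All groups shared that background and differed in the human VHL cDNA introduced by electroporation: wildtype (3 arrays), R167Q (3 arrays) or P81S (4 arrays). VHL recognises hypoxia-inducible factors when oxygen is present and brings them to a ubiquitin ligase, which leads to their breakdown. The labels call P81S tumours apoptosis-resistant and the other tumours apoptotic, and tumours were taken when their maximum dimension reached 1 cm. The promoter of the cDNA is not given in the sources used here. The labels number the arrays as biological replicates without saying which tumours shared a host or a culture, so p-values measure only the spread between these teratomas. The P81S arrays stand for 2 replicates of 2 clones by the design text, and the labels do not tie an array to a clone, so clone and genotype cannot be told apart. A mouse Vhl reading does not check these labels, since the introduced cDNA is human.

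Hox genes lie in 4 clusters that arose from a single ancestral cluster, and genes with the same number in different clusters are paralogues. In the embryo they switch on in order along the cluster: anterior paralogues first, in the hindbrain and the tissues at its level, and posterior paralogues last, in the trunk, tail, limbs and urogenital tract. Their proteins bind DNA with TALE partners of the Pbx and Meis families. Retinoic acid, Cdx factors and signals of the elongating axis activate them, and Polycomb complexes keep them silent in stem cells and in the forebrain.

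The Hox transcript with the smallest adjusted p in the P81S comparisons was Hoxb1, which specifies the identity of hindbrain rhombomere 4 and is known to maintain its own transcription together with Pbx partners. Of the 5 Hox genes called in any comparison, 3 had a RefSeq promoter entry, and their sequences are shown because these genes carried the differences described next. Each is the 250 bases before the annotated start on the plus strand of GRCm38.p6, written 5′ to 3′. They lie at chr11:96365508-96365757 for Hoxb1, chr2:74711743-74711992 for Hoxd3 and chr2:74721728-74721977 for Hoxd4. Capitals mark motif matches. In Hoxb1 they mark the bipartite Pbx-Hox motif TGATNNAT, at positions -162 to -155 from the start. In Hoxd3 and Hoxd4 they mark TGACCT, the reverse strand of the retinoic acid receptor half-site AGGTCA, at -161 to -156 and -145 to -140. In Hoxd4 the later capitals mark the Cdx motif TTTATNG at -45 to -39.
Hoxb1: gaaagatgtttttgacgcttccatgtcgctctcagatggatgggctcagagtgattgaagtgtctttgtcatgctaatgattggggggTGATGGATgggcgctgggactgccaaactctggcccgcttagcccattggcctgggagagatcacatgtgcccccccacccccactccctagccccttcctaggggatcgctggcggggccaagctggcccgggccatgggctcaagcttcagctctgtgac
Hoxd3: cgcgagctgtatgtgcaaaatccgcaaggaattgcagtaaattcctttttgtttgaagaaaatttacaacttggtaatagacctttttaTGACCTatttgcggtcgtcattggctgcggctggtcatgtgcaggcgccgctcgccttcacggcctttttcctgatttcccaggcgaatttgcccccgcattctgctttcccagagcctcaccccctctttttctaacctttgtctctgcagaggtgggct
Hoxd4: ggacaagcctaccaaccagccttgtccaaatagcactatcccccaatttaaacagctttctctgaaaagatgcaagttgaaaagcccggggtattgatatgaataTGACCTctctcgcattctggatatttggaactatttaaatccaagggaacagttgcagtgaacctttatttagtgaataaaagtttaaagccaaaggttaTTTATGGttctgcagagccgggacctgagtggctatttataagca

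The same motifs were sought on both strands of the 250-base windows of all 32851 promoters in the RefSeq table, with no motif contained in another. TGATNNAT occurred in 7.68% of them, AGGTCA in 14% and TTTATNG in 9.81%. Among the 20 Hox genes with a promoter entry, 2 held TGATNNAT (Hoxb1 and Hoxa2), 6 held AGGTCA and 1 held TTTATNG. The Meis motif TGACAG stood in 2 of the 20 and in 15.9% of all promoters, and the homeodomain core TAATTA in 1 of the 20 and in 4.84% of all. The hypoxia response core ACGTG, the letters bound by hypoxia-inducible factors, stood in 3 of the 20 (Hoxa11, Hoxd1 and Hoxd10) and in 16.6% of all promoters, and in none of the 3 printed windows. These matches describe letters and not binding.

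Values are log2 expression values, so a difference of 1 is a 2-fold difference, and a gene was called at an adjusted p under 0.05 in a limma fit over all 18820 genes. Between P81S and wildtype, 3 of the 36 Hox genes were called and all 3 were lower in P81S, a share of 8.33%, where 34.7% of all genes were called in this comparison. The called genes were Hoxb1, Hoxd3 and Hoxd4, each an anterior paralogue. The share of all genes called lower was 17.5%, and no Hox gene was among the 17.2% called higher. Without P81S array 1 there were 5 Hox calls, and without P81S array 3 there were 6. The share of all genes called in those 2 fits is not given here. At an unadjusted p under 0.05 the Hox count was 8 of 36, or 22.2%, against 43% of all genes. The Hox shares thus lay below the background of this comparison, in which many transcripts differed. Many Hox transcripts were dim: 20 of the 36 had a mean above 5.91 log2, the median of a block of unannotated probe sets, compared with 14145 of 18820 genes. Among those 20, 3 were called, or 15%, against 43.8% of the genes above the same level.

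**Figure D1:**
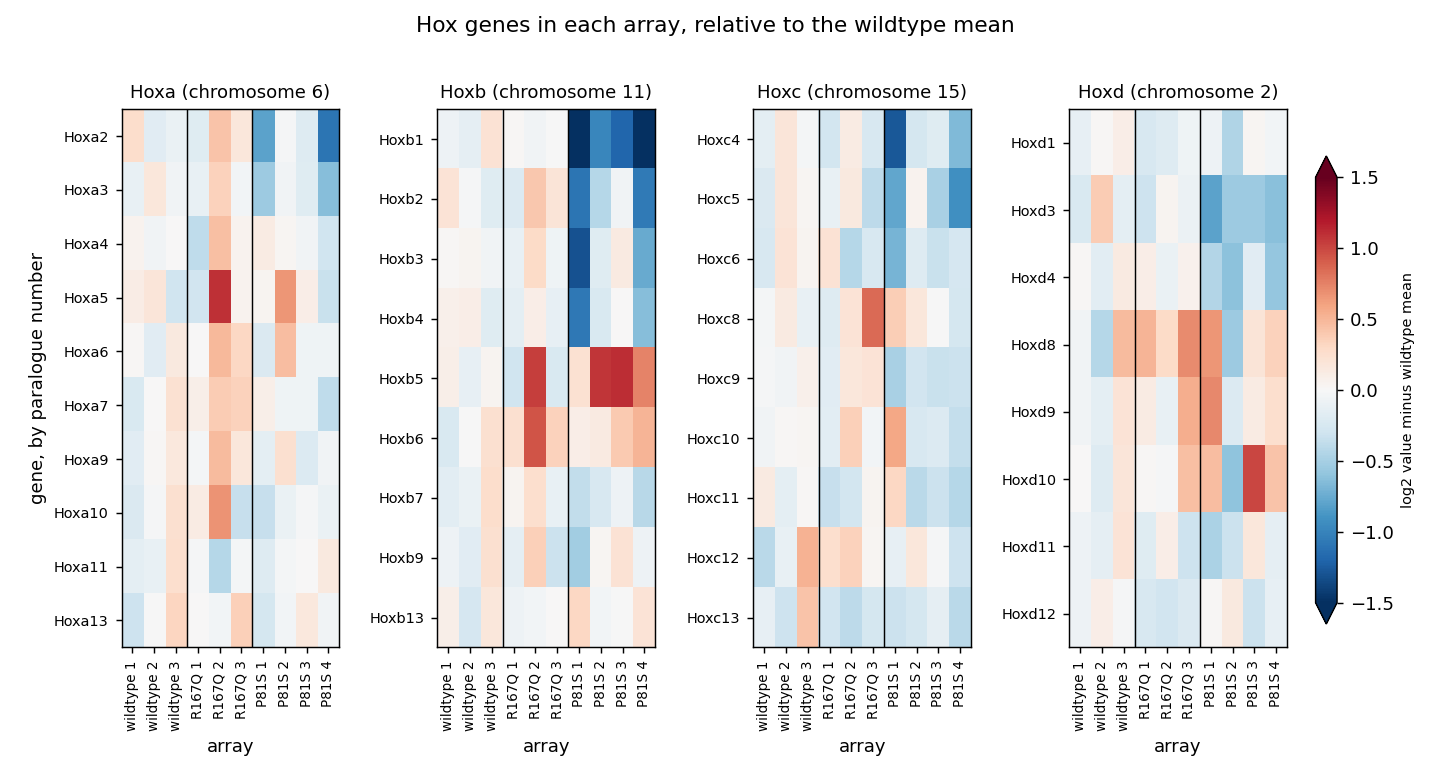
Each cell is the log2 value of a Hox gene (rows, by cluster and paralogue number) in an array (columns) minus the mean of the 3 wildtype arrays, blue for lower and red for higher, with colours ending at 1.5 in either direction. Hoxb1 is blue in all 4 P81S arrays, the anterior genes are mostly bluest in P81S arrays 1 and 4, and R167Q array 2 is red across most of the Hoxa cluster.

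Hoxb1 was 8.33, 8.28 and 8.63 log2 in the wildtype arrays, 8.43, 8.36 and 8.41 in the R167Q arrays, and 6.77, 7.44, 7.22 and 6.18 in the P81S arrays. Every P81S array lay below every array of the other genotypes. The means were 8.42 ± 0.19 (SD, n = 3) in wildtype, 8.40 ± 0.03 (SD, n = 3) in R167Q and 6.90 ± 0.56 (SD, n = 4) in P81S. P81S was 2.86-fold lower than wildtype, a log2 difference of -1.51 ± 0.26 (SE; 95% interval -2.08 to -0.95; adjusted p = 0.00101). Against R167Q it was 2.83-fold lower, with a difference of -1.50 ± 0.26 (SE; adjusted p = 0.00245). R167Q and wildtype differed by -0.02 (95% interval -0.62 to 0.59; adjusted p = 0.993), so a difference of the size seen in P81S lies outside that interval. The fall in P81S was also called with any single array left out, and its adjusted p then reached at most 0.00752 against wildtype and 0.0143 against R167Q.

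The other anterior Hoxb genes also act in the hindbrain. Hoxb2, which acts in rhombomeres 3 to 5, was 9.31, 9.08 and 8.92 log2 in wildtype, 8.90, 9.51 and 9.30 in R167Q, and 8.01, 8.67, 9.05 and 8.05 in P81S. P81S array 3 lay among the other genotypes, and arrays 1 and 4 lay lowest. Hoxb2 was called lower in P81S than in R167Q, 1.73-fold (difference -0.79 ± 0.25, SE; adjusted p = 0.0444). Against wildtype the difference was -0.66 ± 0.25 (SE; adjusted p = 0.0653) and did not pass, although it passed without P81S array 3 (adjusted p = 0.0140). The call against R167Q passed without P81S array 2 or 3 and not without any of the other 8 arrays, where the adjusted p reached at most 0.147. Hoxb3 ranged from 9.52 to 9.61 log2 in wildtype and from 8.26 to 9.71 in P81S, with a difference of -0.53 (adjusted p = 0.175). Hoxb4 ranged from 7.91 to 8.20 in wildtype and from 7.02 to 8.10 in P81S, with a difference of -0.49 (adjusted p = 0.128). Neither passed, and in both the P81S arrays were ordered alike, with 1 lowest, then 4, 2 and 3.

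Hoxd3 and Hoxd4, whose paralogues pattern the neck vertebrae and the hindbrain, were the other called genes. Hoxd3 was 7.31, 7.92 and 7.39 log2 in wildtype, 7.23, 7.59 and 7.46 in R167Q, and 6.73, 6.99, 6.99 and 6.91 in P81S. The P81S arrays lay close together and below all others, and wildtype array 2 stood above its group. The fall against wildtype was 1.55-fold (difference -0.63 ± 0.17, SE; adjusted p = 0.0158). Without wildtype array 2 it was -0.44 and the call ended (adjusted p = 0.0762). Against R167Q the difference was -0.52 ± 0.17 (SE; adjusted p = 0.0570) and did not pass.

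Hoxd4 was 6.14, 5.97 and 6.26 log2 in wildtype, 6.22, 6.02 and 6.18 in R167Q, and 5.68, 5.51, 5.95 and 5.54 in P81S. No P81S array reached another group, although P81S array 3 lay just under the lowest wildtype array. The fall was 1.37-fold against wildtype (difference -0.45 ± 0.15, SE; adjusted p = 0.0354) and 1.39-fold against R167Q (-0.47 ± 0.15, SE; adjusted p = 0.0423). The call against wildtype ended without wildtype array 1, wildtype array 3, P81S array 2 or P81S array 4, with adjusted p values of 0.0886, 0.124, 0.0792 and 0.0841. The call against R167Q passed without wildtype array 3 or P81S array 3 and ended without any of the other 8 arrays (adjusted p up to 0.146). The group means were 6.12 ± 0.14 (SD, n = 3) in wildtype, 6.14 ± 0.11 (SD, n = 3) in R167Q and 5.67 ± 0.20 (SD, n = 4) in P81S, on either side of the block median of 5.91.

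**Figure D2:**
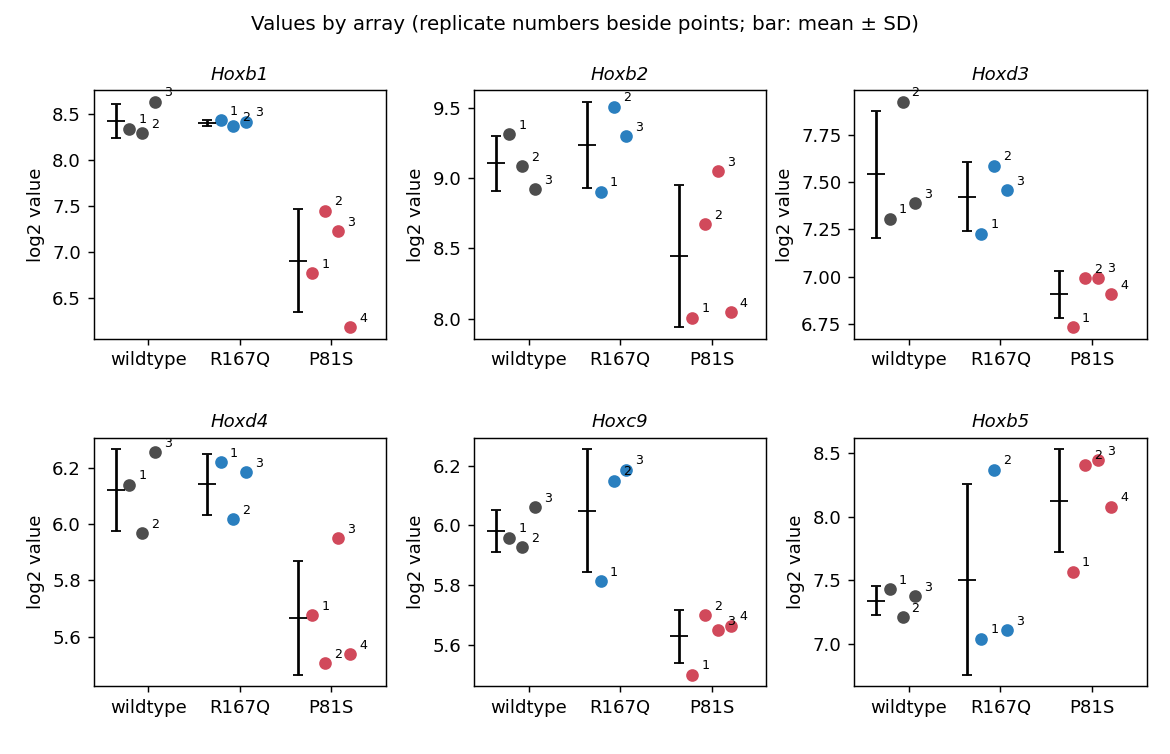
Log2 value of 6 Hox genes in each array, with the replicate number beside the point and the group mean ± SD as a bar beside the points; each panel has its own vertical axis, which does not start at 0. The P81S points of Hoxb1, Hoxd3 and Hoxd4 lie under all other points, those of Hoxb2 overlap the other groups, and those of Hoxb5 lie above all wildtype points.

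Across the anterior class, all 11 genes had a mean difference below 0 between P81S and wildtype, against 48.3% of all genes. Of the 11, 3 were called, all lower, where 34.7% of all genes were called and 17.5% called lower. The median difference of the 11 anterior genes was -0.53, where the median of all genes was 0.01, and it was -0.30 with array weights. The range ran from -1.51 for Hoxb1 to -0.05 for Hoxa4 (adjusted p = 0.875). The anterior genes outside Hoxb and Hoxd were Hoxa2 (-0.53, adjusted p = 0.149), Hoxa3 (-0.35, adjusted p = 0.173), Hoxa4 and Hoxc4 (-0.59, adjusted p = 0.0908), and none of these passed. Hoxa2, the anterior gene that patterns the second branchial arch, was 7.13 in P81S array 1 and 6.83 in array 4. Array 2 lay at 7.91, among the wildtype values of 7.76 to 8.20, and array 3 at 7.73, just under them. Hoxc4 was 5.72, 6.73, 6.81 and 6.33 in P81S and 6.84 to 7.16 in wildtype, without overlap. Hoxd1 lay under the block median in all 10 arrays, at 4.29 to 4.84 (difference -0.14, adjusted p = 0.474).

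The median of the anterior class relative to the wildtype mean was -0.81 in P81S array 1, -0.26 in array 2, -0.17 in array 3 and -0.64 in array 4. The wildtype arrays had medians of 0.02, 0.02 and -0.05, and the R167Q arrays -0.18, 0.12 and -0.05. P81S arrays 1 and 4 therefore stood well below the others, while array 3 lay near R167Q array 1. A P81S array held the lowest of the 10 values in 10 of the 11 anterior genes, and array 1 or 4 did so in 8; over all genes those shares were 47.1% and 29.7%. The exception was Hoxa4, lowest in R167Q array 1. In bulk tumour RNA, fewer cells of a type and less RNA per cell cannot be told apart.

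**Figure D3:**
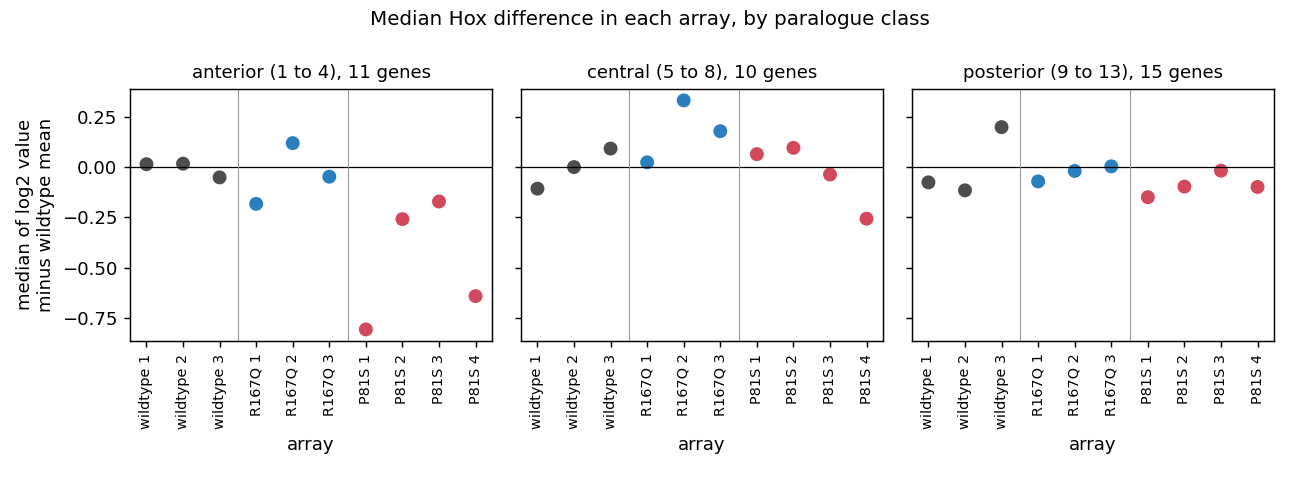
Median over the genes of a paralogue class of log2 value minus the wildtype mean, 1 point for each array, in anterior, central and posterior panels. The anterior medians of P81S arrays 1 and 4 (-0.81 and -0.64) are the lowest points, and the central and posterior medians of the 3 genotypes overlap.

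The central genes pattern the trunk at the level of the neck and chest. Where 34.7% of all genes were called between P81S and wildtype, none of these 10 was. Their median difference was 0.05, with 4 of 10 below 0, and it was -0.05 without wildtype array 2, -0.02 without P81S array 1, -0.09 without P81S array 2 and -0.13 without both of those P81S arrays. Hoxb5, which acts in the shoulder region and the enteric nervous system, was 7.43, 7.21 and 7.38 log2 in wildtype, 7.04, 8.37 and 7.11 in R167Q, and 7.57, 8.41, 8.44 and 8.08 in P81S. The P81S arrays lay above all wildtype arrays, and R167Q array 2 stood at their level, more than 1 log2 unit above the other R167Q arrays. The difference between P81S and wildtype was 0.79 ± 0.32 (SE; 95% interval 0.09 to 1.48), 1.73-fold, and did not pass (adjusted p = 0.0783). It passed without R167Q array 2 (adjusted p = 0.0161) and without P81S array 1 (adjusted p = 0.0276). Its neighbours in the class had differences of 0.28 for Hoxb6 (adjusted p = 0.305) and -0.28 for Hoxb7 (adjusted p = 0.201). Hoxc5 had -0.53 (adjusted p = 0.108), and its P81S array 2 lay among the wildtype arrays.

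The posterior genes pattern the lumbar, sacral and tail regions, the limbs and the urogenital tract. Where 34.7% of all genes were called between P81S and wildtype, none of these 15 was. Their median difference was -0.07 with 12 of 15 below 0, and it was 0.04 without wildtype array 3 and 0.06 with array weights. Without wildtype array 1 or P81S array 2 it was -0.13. Only 2 of the 15, Hoxa10 and Hoxa13, had means above the block median, so little signal stood behind most of these values. Hoxc9, which acts at the chest level and in its motor neurons, was 5.96, 5.93 and 6.06 log2 in wildtype, 5.81, 6.15 and 6.19 in R167Q, and 5.50, 5.70, 5.65 and 5.66 in P81S. All P81S arrays lay under all others. The fall was called against R167Q (1.34-fold; difference -0.42 ± 0.13, SE; adjusted p = 0.0449) and not against wildtype (-0.35 ± 0.13, SE; adjusted p = 0.0640). The call passed without R167Q array 1 and ended without any of the other 9 arrays (adjusted p up to 0.159), and its mean of 5.86 lay under the block median. Hoxd10, a gene of lumbar motor neurons and the limb, spread most within P81S among the posterior genes: 6.09, 5.03, 6.63 and 6.06, against 5.44 to 5.82 in wildtype (difference 0.32, adjusted p = 0.469).

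By cluster, the median difference between P81S and wildtype was -0.05 for Hoxa, -0.28 for Hoxb, -0.28 for Hoxc and -0.10 for Hoxd. Calls numbered 0 of 10, 1 of 9, 0 of 9 and 2 of 8 in that order, against 34.7% of all genes. The Hoxa median was -0.17 without wildtype array 1, -0.01 without wildtype array 3, -0.12 without P81S array 2 and -0.08 without P81S array 3. The Hoxb median was -0.15 without wildtype array 3. The Hoxd median turned to 0.02 with array weights and 0.01 without P81S arrays 1 and 2. Spearman's rho between paralogue number and this difference was positive in each cluster, with lower differences towards the anterior end: 0.297 over the 10 Hoxa genes, 0.733 over 9 Hoxb, 0.6 over 9 Hoxc and 0.429 over 8 Hoxd genes. Over all 36 genes rho was 0.497 between P81S and wildtype, -0.0478 between R167Q and wildtype, and 0.639 between P81S and R167Q. These correlations run across genes that share arrays and neighbourhoods, and they are descriptions. They differed between single arrays: 0.509 and 0.505 in P81S arrays 1 and 4, 0.180 and 0.186 in arrays 2 and 3. Wildtype array 3, set against the mean of its own group, gave 0.565, as much as the P81S arrays, with posterior genes above the wildtype mean (median 0.20) and anterior genes near it (-0.05).

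**Figure D4:**
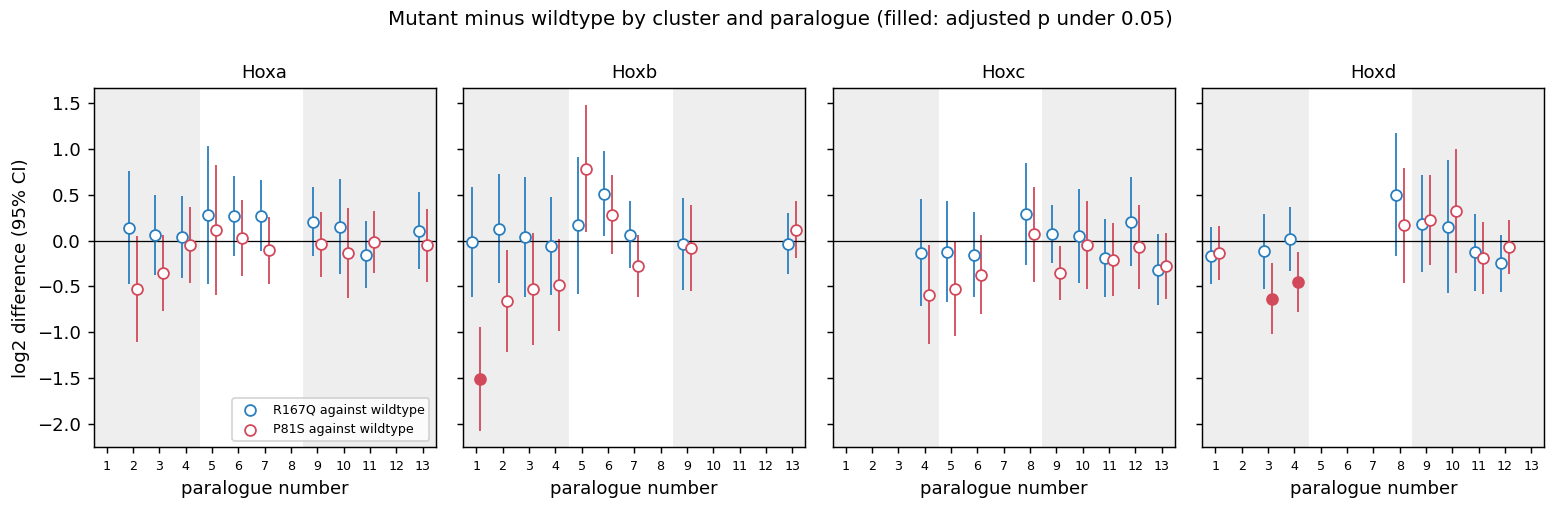
Log2 difference with its 95% interval for each measured Hox gene by paralogue number, a panel for each cluster, for P81S against wildtype (red) and R167Q against wildtype (blue); filled points passed an adjusted p under 0.05. The filled points are Hoxb1, Hoxd3 and Hoxd4 in P81S, and no R167Q point is filled.

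The comparison of R167Q with wildtype called none of the 36 Hox genes by limma, and 0.0903% of all genes. At an unadjusted p under 0.05 it held 1 of 36, Hoxb6, against 9.73% of all genes. Hoxb6 was 5.02, 5.25 and 5.49 in wildtype and 5.50, 6.20 and 5.60 in R167Q (difference 0.51 ± 0.21, SE; adjusted p = 0.481). Hoxb6 and Hoxd12 (difference -0.25, adjusted p = 0.612) were the 2 genes whose arrays did not overlap between these groups, or 5.56% against 19.3% of all genes. The class medians were 0.02 for anterior, 0.27 for central and 0.05 for posterior genes. Without R167Q array 2 the central median was 0.07 and the posterior median -0.03. That array held the highest of the 10 values in 8 of the 10 Hoxa genes, where it held the highest value in 3.78% of all genes. Its median over the Hoxa genes was 0.44 above the wildtype mean, against -0.02 and 0.11 in R167Q arrays 1 and 3. Hoxa5, a gene of lung and neck patterning, was 8.34 in it and 6.95 and 7.29 in the other R167Q arrays.

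The comparison of the mutants with each other shares its P81S arrays with the comparison against wildtype, so its values are not a second, independent measurement. It called 4 of 36 Hox genes, all lower in P81S: Hoxb1, Hoxb2, Hoxc9 and Hoxd4. That share was 11.1%, against 22.5% of all genes and 10.1% called lower. The number of Hox calls was 1 when wildtype array 1, R167Q array 3, P81S array 1 or P81S array 4 was left out. It was 2 when wildtype array 2, wildtype array 3, R167Q array 1 or R167Q array 2 was left out. The share of all genes called in those fits is not given here, so these counts have no background beside them. Below 0 were 28 of 36 differences, or 77.8%, against 46.9% of all genes. The class medians were -0.47 for anterior, -0.23 for central and -0.05 for posterior genes. Arrays did not overlap for 5 genes (13.9%, against 30.7% of all genes), all lower in P81S (14.2% of all genes): Hoxa7, Hoxb1, Hoxc9, Hoxd3 and Hoxd4. Between P81S and wildtype 6 genes did not overlap, or 16.7% against 40.6% of all genes. These were Hoxb1, Hoxc4, Hoxc9, Hoxd3 and Hoxd4 lower (20.7% of all genes) and Hoxb5 higher (19.9% of all genes).

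Hoxb lies on chromosome 11, where other genes also differed in some P81S arrays. The median difference from the wildtype mean over 1460 chromosome 11 genes, Hox genes left out, was -0.19 in P81S array 1, -0.24 in array 2, -0.01 in array 3 and 0.02 in array 4. Among the 812 of them brighter than the median gene, it was -0.37, -0.35, -0.02 and -0.03. Hoxb1 was lower than the wildtype mean by differences of -1.65, -0.97, -1.19 and -2.24 in the same arrays. With P81S arrays 1 and 2 left out, the Hoxb1 difference against wildtype was -1.72 (adjusted p = 0.000837), and with arrays 3 and 4 left out it was -1.31 (adjusted p = 0.00267). Subtracting each array's chromosome median left -1.41 (adjusted p = 0.00283), and subtracting that of the brighter genes left -1.32 (adjusted p = 0.00474). The median of the 4 anterior Hoxb genes was -1.20, -0.33, -0.02 and -0.91 in P81S arrays 1 to 4. The median of all 9 Hoxb genes, -0.28, became -0.17 after the first subtraction and -0.08 after the second.

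The 20 nearest tested genes on each side of the Hoxb cluster had medians of -0.26, -0.32, -0.09 and -0.02 in P81S arrays 1 to 4. Of these 40 neighbours, 1 was called higher and 10 lower against wildtype, with a median difference of -0.13. The neighbours of Hoxa had 6 higher and 7 lower of 40, those of Hoxc 3 and 9 of 35, and those of Hoxd 11 and 8 of 40, with medians of 0.04, -0.13 and 0.02. Over all genes the shares were 17.2% higher and 17.5% lower.

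**Figure D5:**
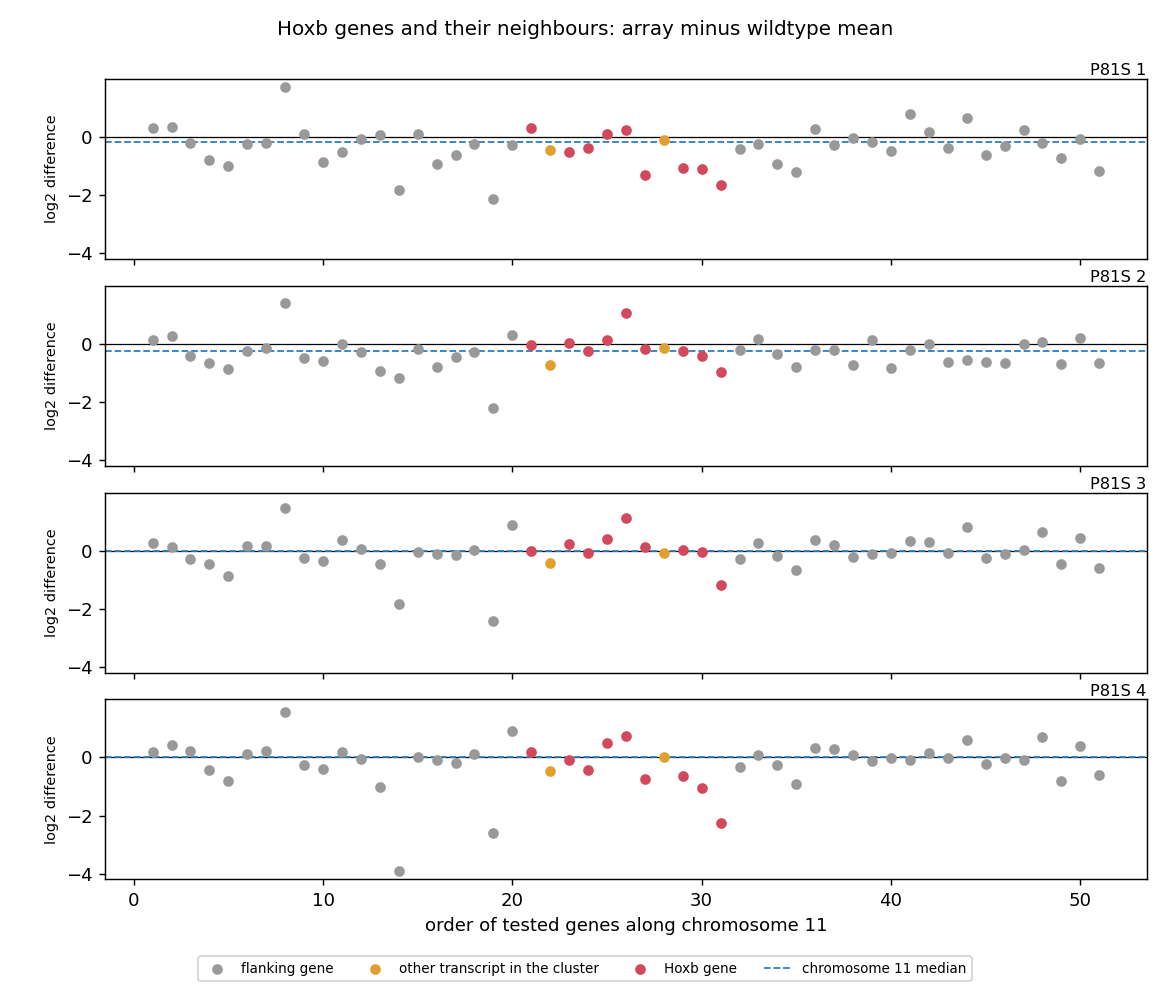
Log2 value minus the wildtype mean in each P81S array for the Hoxb genes (red), other transcripts within the cluster (orange) and 20 tested neighbours on each side (grey), in their order along chromosome 11; the dashed line is the chromosome 11 median of that array. Hoxb1, the red point farthest right, lies at -1.65, -0.97, -1.19 and -2.24, under the dashed line in every panel.

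Transcripts that lie between the Hox genes include microRNAs, which pair through their seed (bases 2 to 8) with messenger RNAs, Hox messages among them. Of 21 listed noncoding transcripts of the clusters, 8 were measured. Of these 8, 1 was called in P81S against wildtype, where 34.7% of all genes were called and 17.5% called lower. The called transcript was Mir196a-1, a gene of the Hoxb cluster. It was 4.81, 4.77 and 4.69 log2 in wildtype, 4.33, 4.44 and 4.20 in R167Q, and 4.31, 4.01, 4.34 and 4.28 in P81S. Both mutant groups lay below all wildtype arrays. The difference was -0.52 ± 0.11 (SE; adjusted p = 0.00381) in P81S and -0.43 ± 0.12 (SE; adjusted p = 0.325) in R167Q. All of these values lie under the block median, so the level is close to that of unannotated probe sets. A value of this probe set is not a measure of the mature microRNA. The mature sequence is shown because its paralogue differs from it at a single base, A12C counted from the 5′ end, with the seed in capitals (RefSeq, GRCm38.p6, 5′ to 3′). Mir196a-1 gives the first at chr11:96265187-96265208 on the plus strand, and Mir196a-2, in the Hoxc cluster, gives the same letters at chr15:102973365-102973386 on the plus strand. Mir196b, within Hoxa, gives the second at chr6:52230129-52230150 on the minus strand.
miR-196a-5p: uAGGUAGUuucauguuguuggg
miR-196b-5p: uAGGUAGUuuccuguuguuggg

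Listed partners and regulators of Hox genes are read against the 34.7% of all genes called between P81S and wildtype (17.2% higher and 17.5% lower). The 3 of 9 TALE cofactors, 6 of 18 axis genes and 7 of 21 retinoic acid genes called lie near that share. Of 9 TALE cofactors, 2 rose and 1 fell: Meis3 by 0.71 ± 0.17 (SE; adjusted p = 0.00708) and Pbx4 by 0.51 ± 0.17 (SE; adjusted p = 0.0385) upward, and Meis1 with a difference of -0.68 ± 0.19 (SE; adjusted p = 0.0191). The 9 TALE genes had a median difference of 0.32. Of 18 Cdx and axis elongation genes, 1 rose and 5 fell, with a median of -0.16. The smallest p values belonged to Gbx2, which sets the border of midbrain and hindbrain (-1.01 ± 0.15, SE; adjusted p = 0.000389), Lin28a, an RNA-binding protein of stem cells (-2.27 ± 0.35, SE; adjusted p = 0.000556), and Fgf8, a signal of that border and of the tail bud (-0.92 ± 0.19, SE; adjusted p = 0.00365). Cdx2 and Cdx4, direct activators of Hox genes, were among the 5 that fell (-0.49, adjusted p = 0.0470, and -0.43, adjusted p = 0.0162). Both had mean levels under the block median in every group. Cdx1, of the same family, did not pass (-0.15, adjusted p = 0.498). The gene that rose was Gdf11 (0.38, adjusted p = 0.0458). None of 7 ParaHox and hindbrain regulators was called.

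Of 21 retinoic acid pathway genes, 1 rose and 6 fell, with a median of 0.04. Crabp1, which binds retinoic acid in the cytoplasm, fell 2.53-fold (-1.34 ± 0.15, SE; adjusted p = 9.07e-05). Stra8, induced by retinoic acid in germ cells, had a difference of -3.20 ± 0.37 (SE; adjusted p = 0.000117), and Cyp26b1, which degrades retinoic acid, -1.12 ± 0.18 (SE; adjusted p = 0.000709). The gene that rose was Aldh1a1, which makes retinoic acid (1.64 ± 0.34, SE; adjusted p = 0.00320).

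The lists that follow are read against the same shares of all genes: 34.7% called, 17.2% higher and 17.5% lower. Of 27 Polycomb genes, whose products silence Hox clusters, 2 rose and 12 fell, with a median of -0.32. The smallest p values belonged to Cbx7 (-1.74 ± 0.19, SE; adjusted p = 8.33e-05), Suz12 (-1.18 ± 0.14, SE; adjusted p = 0.000118) and Eed (-1.28 ± 0.16, SE; adjusted p = 0.000158), members of the complexes that read and write the silencing mark. Of 17 Trithorax genes and H3K27 demethylases, which oppose Polycomb, 1 rose and 6 fell, with a median of -0.20. Dpy30, Ash2l and Mllt10 had the smallest p values, with differences of -0.63, -0.59 and -0.71. Of 8 CTCF and cohesin genes, which shape the clusters' loops, 0 rose and 4 fell, with a median of -0.41, led by Wapl at -0.98 (adjusted p = 0.00264). R167Q against wildtype had no call in any of these lists.

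Markers of several cell types differed between the same arrays. Between P81S and wildtype, 34.7% of all genes were called, 17.2% higher and 17.5% lower. All 10 listed markers of pluripotent cells fell in P81S, with a median of -3.43; their mean level was 10.1 to 10.9 log2 in wildtype, 9.13 to 10.2 in R167Q and 5.97 to 7.81 in P81S. By P81S array it was 7.20, 7.81, 7.22 and 5.97, and Hoxb1 was 6.77, 7.44, 7.22 and 6.18. Array 4 was thus lowest and array 2 highest in both. P81S arrays 1 and 3 had near-equal marker means and Hoxb1 values of 6.77 and 7.22. In R167Q array 2 the marker mean was 9.13, against 9.91 and 10.2 in R167Q arrays 1 and 3. Hoxb1 was 8.36 in R167Q array 2, against 8.43 and 8.41. The part of the pluripotent cells in the Hoxb1 difference was not tested. Among forebrain and midbrain markers, tissue in front of the Hox domains, 5 of 13 rose and 1 fell, with a median of 0.55. Their mean level was 7.37 to 7.56 in wildtype, 7.06 to 7.43 in R167Q, and 8.53, 8.59, 7.78 and 7.87 in P81S arrays 1 to 4. Pan-neuronal markers rose in 8 of 9 genes, with a median of 0.83, and spinal cord and motor neuron markers rose in 1 of 13, with a median of -0.12. The part of neural cells in the anterior Hox values was not tested.

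Markers of tissues that carry posterior Hox genes are read against the shares of all genes: 34.7% called, 17.2% higher and 17.5% lower. Of 13 paraxial and limb mesoderm markers 2 rose and 2 fell, of 10 cartilage and bone markers 1 rose and 1 fell, of 8 kidney and urogenital markers 3 fell and none rose, and of 12 gut and glandular markers 1 fell and none rose. Among 9 squamous epithelium markers 1 rose, and their mean level was 9.57 in P81S array 1 and 6.13 to 7.22 in the other 9 arrays. P81S array 1 was also the array with the lowest value in 5 of the 11 anterior Hox genes, and the part of its squamous tissue was not tested. None of 8 skeletal and cardiac muscle markers was called, 1 of 6 endothelial markers fell and 3 of 8 blood and myeloid markers rose. No marker in these lists was called between R167Q and wildtype. The labelled tissue, teratoma, has no marker of its own. Every marker list had a mean level above the block median in every array, and 75.2% of all genes had a mean above it. These levels therefore do not check the label.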

How the data were processed

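Gene expression was measured on 10 one-colour Affymetrix arrays, 1 for each teratoma. The deposited values are log2 expression values, 1 per probe set and array. RMA and Partek appear in the submitters' processing notes, with no version or role given. Array medians lay between 6.97 and 7.11 log2. No scanner output entered the analysis, so a probe's signal over background is not known, and precision rests on how many arrays each group has. The comparison level for dim genes is the median of 6616 unannotated probe sets, which is not a measured background. Probe sets with 1 annotated symbol were kept (21218 of 35556), and each of 18820 genes was represented by its brightest. Probe sets annotated to several symbols were left out.

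All arrays entered 1 limma 3.58.1 fit (R 4.3.3; lmFit, eBayes with trend, two-sided; 7 residual degrees of freedom), with Benjamini-Hochberg adjustment over 18820 genes and statmod 1.5.0 for block fits. The fit was tested on simulated data. Medians over gene lists carry no test. The members and lists were chosen with earlier results of these data known. Every Hox gene could be named. Of each other list, up to 3 genes with the smallest p in P81S against wildtype were named. Cdx1, Cdx2, Cdx4, Gdf11 and Aldh1a1 were added after their values were seen. Alternatives covered normalization, dim genes, probe set choice, variance models, samples in the fit, array weights, replicate and clone blocks, chromosome shifts, and leaving out arrays. Promoters and microRNAs come from RefSeq tables of GRCm38.p6.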

Additional observations from a re-analysis of the deposited data

Results flagged for a closer look

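In the P81S group, Hoxc10 and Hoxc11 each had an array far from the rest: P81S array 1 was highest, at 5.91 log2 for Hoxc10 where the next array had 5.12, and at 4.75 for Hoxc11 where the next had 4.12. The gap made up 0.837 of the group's range for Hoxc10 and 0.862 for Hoxc11, above Dixon's 95% critical value for 4 samples. Both genes lie under the block median of 5.91 log2 in their mean. Of the 43 groups of values examined in this way 2 stood out, and chance marks about 1 in 20.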

How the results depend on the processing

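In all 26 alternatives tried for P81S, Hoxb1 was called lower against wildtype and against R167Q, and the anterior median kept its sign. The 3 Hox calls in P81S against wildtype became 5 with median centring, 6 with array weights, 5 with P81S arrays 1 and 3 and arrays 2 and 4 as clone blocks, and 5 with the chromosome shift of brighter genes removed, which was chosen after seeing the data. Leaving out 1 array gave 2 to 6 calls. The 4 calls against R167Q became 2 with quantile normalization, 2 with only the compared groups, 1 without P81S arrays 1 and 2 and 2 without arrays 3 and 4, and 1 to 4 with 1 array left out. With the replicate number as a block there were 2 calls against wildtype and 1 against R167Q. Deviations of same-numbered arrays had r from -0.278 to 0.212. These values come from groups of 3 or 4 arrays and cannot settle whether the numbers pair the samples. R167Q against wildtype had 0 calls in all 24 alternatives. These Hox counts are given without the share of all genes called, so their changes cannot be read as particular to Hox genes. No value changed sign past the threshold. The Hoxd4 call against wildtype ended in 8 of 26 alternatives, and the calls of Hoxb2, Hoxd4 and Hoxc9 against R167Q in 16 of 26, 14 of 26 and 14 of 25; the Hoxd3 call ended without P81S arrays 1 and 2 (adjusted p = 0.0504) or 3 and 4 (adjusted p = 0.0563). Without dim genes the medians for Hoxb, Hoxc and Hoxd were -0.53, -0.45 and -0.45. Apart from the changes in which arrays or genes were used, the cause was not tested. With 3 or 4 arrays a group, a dim Hox gene that was not called may still differ by an amount inside its interval.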
